A study of Mus musculus with 30 samples.

Results

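The insulin and IGF signalling genes described here were 10 genes chosen by symbol: the ligand Igf1, the receptors Igf1r and Insr, the adaptors Irs1 and Irs2, and the IGF binding proteins Igfbp3, Igfbp4, Igfbp5, Igfbp6 and Igfbp7. All 10 were among the 38561 Ensembl mouse genes of the count table, and all 10 passed the filter on low counts, which left 14438 genes for testing. They were followed in adipose-derived stem cells from inguinal fat of male C57BL6/J mice, sorted as Sca-1+, CD34+, CD31-, CD45- and Ter119- and grown to passage 2. The lean animals received control chow. The obese animals received, from weaning, a lard-based high-fat food that supplied 60% of kilocalories as fat. Young mice were 20 weeks old and aged mice 52 weeks old at death. Each mouse gave 1 RNA library, named here by group and mouse number (YL512 is a young lean library). There were 8 libraries of each lean group, 8 of young obese mice and 6 of aged obese mice. Aged obese mice had eaten the diet for longer than young obese mice, so age and time on the diet cannot be told apart in them. They were also survivors, since 8 of 12 mice purchased for that group were alive near the end of the study.

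IGF-1 and insulin bind related receptor tyrosine kinases, IGF1R and INSR, which phosphorylate the adaptors IRS1 and IRS2 and so engage the PI3K and AKT pathway. Secreted IGF binding proteins hold IGFs outside the cell and can limit or prolong their action, and proteases such as PAPP-A release IGFs by cleaving some of them. In adipose precursors this pathway is known for its part in proliferation and in adipocyte differentiation.

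Counts in genes ranged from 30597765 to 47970233 per library, and levels are given as CPM, the counts of a gene relative to its library's size after TMM scaling. Endothelial markers (5 of 5 genes in the table) summed to 0.535 to 3.89 CPM over all libraries, and none had a group median above 1 CPM. The 7 immune markers summed to 12.2 to 36.9 CPM, with group medians of 19.2 to 25.4 CPM. In each group 3 of the 7 had a median above 1 CPM, while Cd3e was at 0 in every library of 3 groups. Csf1r was the largest part of the immune sum, with group medians of 13.02 to 17.46 CPM. Ptprc, which encodes CD45, reached at most 0.02896 CPM and was at 0 in every aged library. Adgre1 reached at most 0.02733 CPM. Of the 8 adipose progenitor markers at least 7 had a median above 1 CPM in each group. Mural and smooth muscle markers (5 genes) summed to a median of 308 CPM in aged obese libraries (91.9 to 355). Medians were 138 to 174 CPM in the other groups. Myh11 was the largest part, with a median of 158 CPM in aged obese libraries against 46.9 to 111 CPM elsewhere. Cspg4 and Mcam also had their highest median there. Notch3 (32.8 CPM) and Rgs5 (0.727 CPM) were not above their young lean medians (34.0 and 0.804 CPM). The part of these markers in the results was not tested. Aged obese 10 and 12 stood apart, with Ly6a, which encodes Sca-1, at 176.4 and 362 CPM, while aged obese 14 to 17 held 917 to 1018 CPM. Their Cd34 was near 0 (0.193 and 0.732 CPM, against 9.67 to 37.9 CPM). Young obese 18, 19, 20, 21 and 23 lay close together, with an SD over genes of the log2 CPM difference between 0.277 and 0.328 in 10 pairs. It was 0.314 for young obese 1 and 2, and 0.548 to 0.952 in the other 17 pairs of that group. Within the other groups 71 pairs ran from 0.288 to 1.25. The lowest of these was aged lean 19 and 20, as close as the young obese sets but averaged in no fit. Libraries this close may not be independent, which the tests assume. Levels in bulk RNA cannot tell fewer cells of a type from less RNA per cell.

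Transcripts of Igfbp7, Igfbp6 and Igfbp4 were the most abundant of the 10 genes in each of the 4 groups. Per kilobase of exon, young lean cells held 884 CPM of Igfbp7, 333 CPM of Igfbp6 and 165 CPM of Igfbp4 (mean CPM per kilobase, n = 8). Igfbp3 followed at 11.5 and Igfbp5 at 7.92 CPM per kilobase. The receptors were lower in young lean cells, Igf1r at 2.74 and Insr at 2.25 CPM per kilobase. In young obese cells Igfbp5 and Igf1r were close, with medians of 3.43 and 3.60 CPM per kilobase. In young lean cells Irs2 at 0.895, Irs1 at 0.842 and Igf1 itself at 0.605 CPM per kilobase had the lowest means. The order of these genes differed by median, with Irs2 at 0.454, Igf1 at 0.584 and Irs1 at 0.807 CPM per kilobase. The Irs2 mean includes YL512 at 23.8 CPM. Within groups the 10 genes differed strongly in how steady they were. The SD of log2 CPM pooled over the 4 groups was 0.24 for Igf1r and 0.24 for Insr, against a median of 0.33 over all genes tested. It was 1.62 for Igfbp3 and 1.35 for Irs2, larger than in 99.6% and 99.1% of genes tested. Igf1 at 1.08, Igfbp4 at 0.95, Igfbp5 at 0.85 and Irs1 at 0.65 were also above the median. Igfbp6 at 0.40 and Igfbp7 at 0.34 lay near it.

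**Figure D1:**
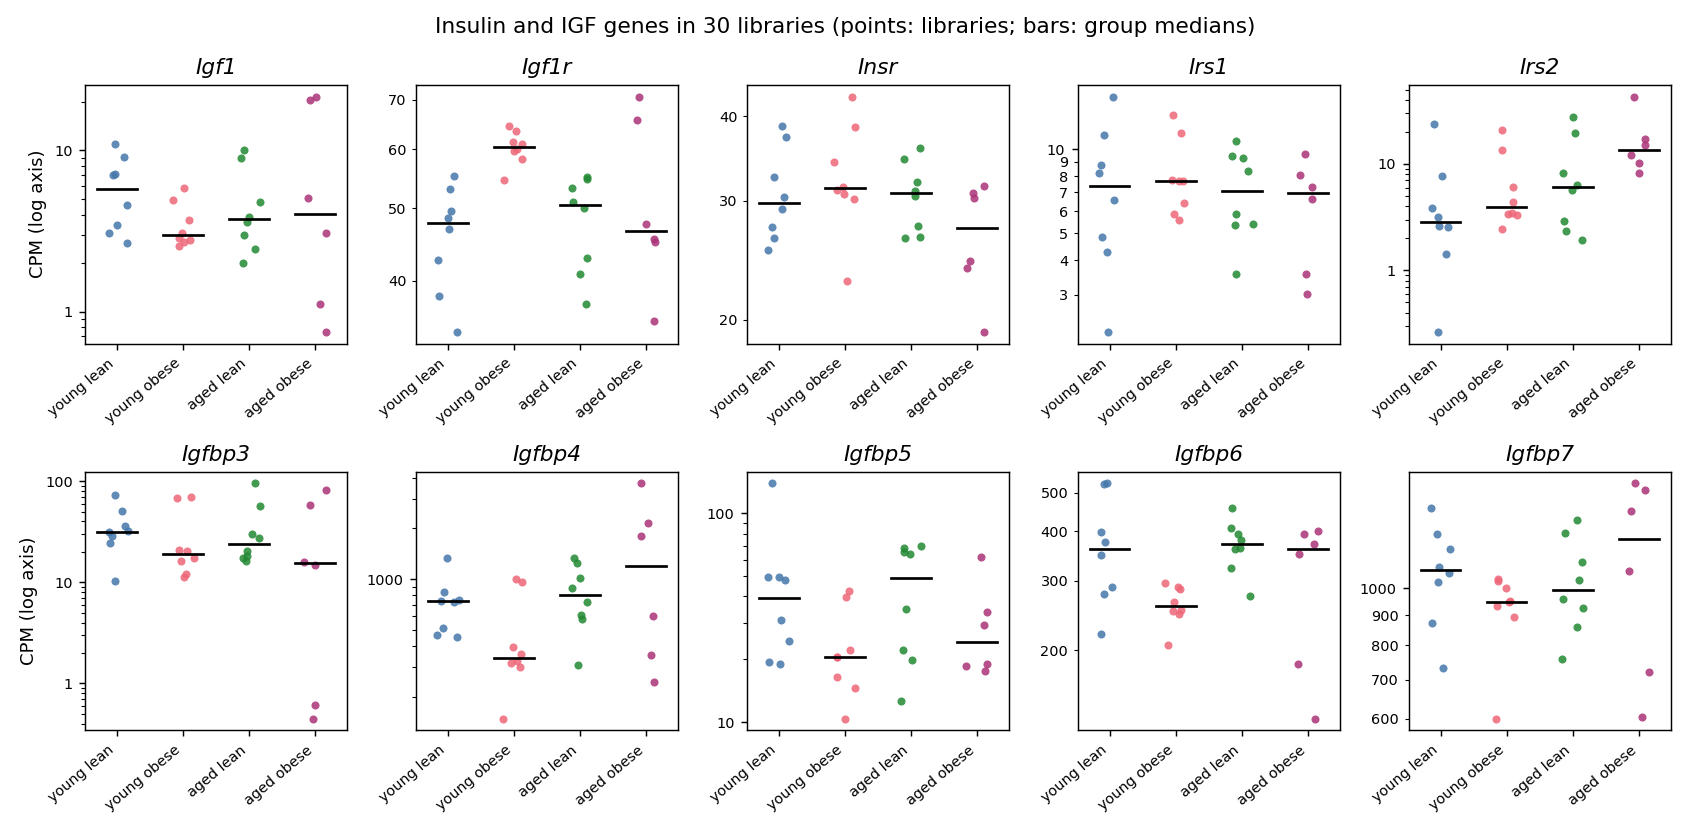
Level of each of the 10 genes in CPM (log axis) in each library, by group; points are libraries and bars are group medians. Young obese libraries hold Igf1r in a narrow band of 54.6 to 64.6 CPM, while Igfbp3 in aged obese libraries runs from 0.449 to 81.1 CPM.

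The RefSeq sequence before the start of transcription is shown for Igf1r, the gene called with obesity in young mice, and for Igfbp4 and Igfbp3, whose levels ranged most widely among the binding proteins. Each line gives the 250 bases before the start on GRCm38.p6, 5′ to 3′ on the gene's strand. The regions are chr7:67952007-67952256 (plus strand) for Igf1r, chr11:99040994-99041243 (plus strand) for Igfbp4 and chr11:7213924-7214173 (minus strand) for Igfbp3. Capitals mark GC boxes (GGGCGG) and TATA motifs (TATAAA or TATATA), searched on both strands.
Igf1r: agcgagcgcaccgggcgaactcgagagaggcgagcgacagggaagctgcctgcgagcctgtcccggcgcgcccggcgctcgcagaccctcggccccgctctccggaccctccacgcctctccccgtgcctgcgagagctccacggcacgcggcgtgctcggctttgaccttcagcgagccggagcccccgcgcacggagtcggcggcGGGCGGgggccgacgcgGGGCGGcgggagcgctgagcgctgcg
Igfbp4: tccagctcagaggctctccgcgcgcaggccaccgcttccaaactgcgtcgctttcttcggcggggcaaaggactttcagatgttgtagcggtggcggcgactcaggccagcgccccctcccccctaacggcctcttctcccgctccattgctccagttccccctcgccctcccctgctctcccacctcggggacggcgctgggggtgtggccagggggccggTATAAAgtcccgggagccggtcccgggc
Igfbp3: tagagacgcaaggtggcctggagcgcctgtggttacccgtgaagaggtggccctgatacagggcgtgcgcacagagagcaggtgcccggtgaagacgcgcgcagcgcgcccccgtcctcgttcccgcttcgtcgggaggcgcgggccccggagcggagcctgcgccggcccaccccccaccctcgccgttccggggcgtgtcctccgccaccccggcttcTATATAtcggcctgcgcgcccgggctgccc
A sequence was found for 9 of the 10 genes (Insr was not among them). Igf1r held 2 GC boxes and no TATA motif, and 77.6% of its bases were G or C, against a median of 52.4% over all promoters in the table. Igfbp4 and Igfbp3 each held a TATA motif, which began 28 and 30 bases before the start, and no GC box. Igfbp6 held a TATA motif 148 bases before the start, and Irs1, Irs2 and Igfbp7 held GC boxes (2, 1 and 4). Among 32851 promoters of the same length 15.6% held a TATA motif and 32.7% a GC box. A match is a run of letters and not a measured binding site.

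With obesity in young mice Igf1r, the receptor of IGF-1, was the only one of the 10 genes that edgeR called (1 of 10 at an adjusted p below 0.05, higher), where 8.83% of all genes tested were called, 3.46% higher and 5.37% lower. Its share is thus near the background. Igf1r (ENSMUSG00000005533) ranged from 34.1 to 55.3 CPM with a median of 47.7 in young lean libraries, and from 54.6 to 64.6 CPM with a median of 60.5 in young obese libraries. The ranges touched only where young lean 24 at 55.3 CPM exceeded young obese 2 at 54.6 CPM. In 0 of the 10 genes were the young groups free of overlap, against 1.61% of all genes. The mean rose from 46.04 ± 7.26 CPM (SD, n = 8) to 60.4 ± 3.12 CPM (n = 8), a log2 fold change of 0.39 ± 0.12 (SE) with an adjusted p of 0.0372 in edgeR's quasi-likelihood test. An offset in each library for gene length and GC content ended the call (log2 0.19, adjusted p = 0.373). The exons of Igf1r span 16791 bases, longer than in 98.5% of genes tested. Those of Insr span 13746 bases, longer than in 96.6%, and its log2 change was 0.08. The part of exon length alone in the Igf1r call was not tested. The length dependence of the libraries, in log2 per doubling of exon length, was -0.041 ± 0.0938 (SD, n = 8) in young lean libraries. The young obese value was 0.0549 ± 0.0532 (n = 8). The call also ended in 9 of 16 fits that left out 1 library, without young lean 7, 23, 26 or 27 or young obese 1, 2, 20, 21 or 22 (adjusted p up to 0.0984, without young lean 26). It ended without young obese 1 and 2 together (0.0785) and with the close young obese libraries averaged (0.262), with log2 changes of 0.41 and 0.40. Both of these fits hold fewer young obese libraries.

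**Figure D2:**
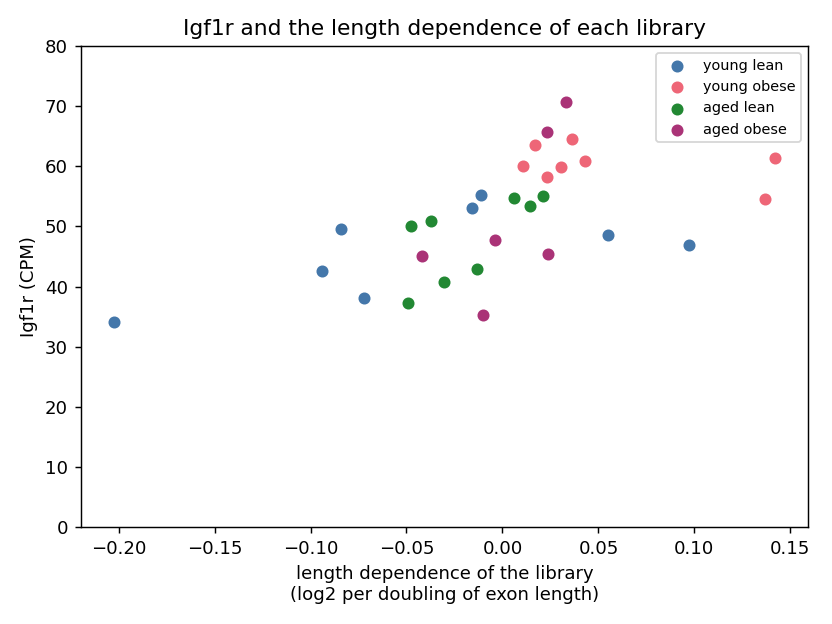
Igf1r in CPM (vertical axis) against the length dependence of each library in log2 per doubling of exon length (horizontal axis), coloured by group. All 8 young obese libraries lie above 0 on the horizontal axis, while 6 of 8 young lean libraries lie below 0, with young lean 26 lowest at -0.203 and 34.1 CPM.

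The other receptor and the adaptors did not pass the test with obesity in young mice. Insr, the insulin receptor, had a median of 29.8 CPM in lean and of 31.3 CPM in obese young mice (log2 0.08 ± 0.12, adjusted p = 0.679 in edgeR). Irs1, an adaptor of both receptors, had medians of 7.38 and 7.69 CPM (log2 0.09 ± 0.30). Irs2, the other main adaptor, ranged from 0.264 to 23.8 CPM in young lean libraries, and young obese ones held 2.44 to 21.1 CPM (log2 0.34 ± 0.64). Single libraries set the Irs2 estimate, which was 1.24 without YL512 and -0.13 without young obese 1. Igf1 had medians of 5.78 and 2.98 CPM (log2 -0.75 ± 0.50, adjusted p = 0.332), and its ranges of 2.66 to 10.9 and 2.55 to 5.82 CPM overlapped.

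All 5 binding proteins had negative log2 changes with obesity in young mice, and none passed in edgeR. In voom with quality weights Igfbp4 (-0.90, adjusted p = 0.00593), Igfbp5 (-1.24, 0.00336) and Igfbp6 (-0.29, 0.0386) were called. Igfbp6, which prefers IGF-2 over IGF-1, ranged from 220.5 to 529 CPM with a median of 362 in young lean libraries and from 206.5 to 296 CPM with a median of 259 in young obese libraries. The change was -0.50 ± 0.19 on the log2 scale (adjusted p = 0.0808 in edgeR). Fitting the young groups alone gave an adjusted p of 0.0463, and leaving out YL512 gave 0.0340. Igfbp5, a binding protein that attaches to the extracellular matrix, had medians of 39.5 and 20.6 CPM (log2 -1.02 ± 0.41, adjusted p = 0.102). Without YL512, its highest library, the change was -0.55 (0.313). Igfbp4 had medians of 736 and 341 CPM (log2 -0.62 ± 0.44, adjusted p = 0.365). The young obese group held 2 kinds of Igfbp4 level, 954 and 1004 CPM in young obese 1 and 2 and 148 to 396 CPM in the other 6. The same libraries held Igfbp3 at 67.9 and 70.2 CPM, against 11.3 to 21.1 CPM in the other 6. Cd34 was at 26.1 and 27.9 CPM in young obese 1 and 2, and at 0.911 to 2.79 CPM in the others. The proliferation gene Mki67 was at 38.0 and 35.9 CPM in them and at 124 to 209 CPM in the others. The part of these differences in the results was not tested. Igfbp7 (log2 -0.21 ± 0.16) and Igfbp3 (-0.28 ± 0.64) had the smallest estimates of the 5. Over the alternative fits Igfbp6 ran from -0.59 to -0.22. The highest estimates of Igfbp3, Igfbp5 and Igfbp7 were positive, at 0.32, 0.67 and 0.05. The exons of Igfbp6 and Igfbp7 are short, 1112 and 1209 bases, longer than in only 6.69% and 7.51% of genes tested. The part of exon length alone in these changes was not tested. Over the 10 genes the median log2 change was -0.24, against -0.02 over all genes tested.

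**Figure D3:**
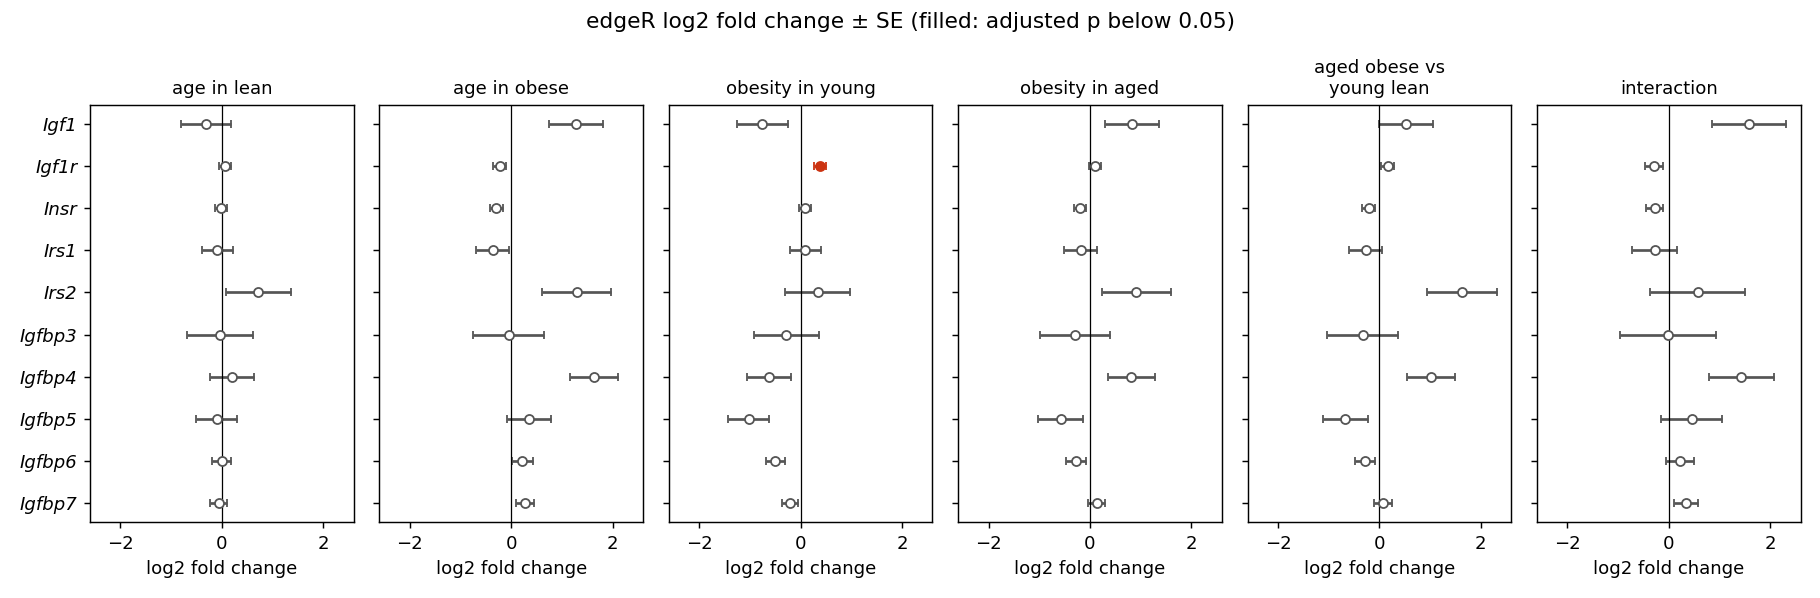
Log2 fold change of the 10 genes (horizontal axes, points with SE bars) in the 6 comparisons, from edgeR; filled red points have an adjusted p below 0.05. The single filled point is Igf1r with obesity in young mice, at 0.39.

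With age in obese mice Igfbp4, an inhibitory binding protein of IGFs and a substrate of PAPP-A, missed the threshold by the narrowest margin of the 10 genes. Aged obese 10, 12, 14, 15, 16 and 17 held 244, 354, 2163, 3703, 601 and 1802 CPM of Igfbp4 (ENSMUSG00000017493). In the 8 young obese libraries it ranged from 148 to 1004 CPM with a median of 341. Aged obese 14, 15 and 17 lay above every young obese library, and aged obese 10, 12 and 16 lay within their range. The log2 change was 1.64 ± 0.47 with an adjusted p of 0.0502 in edgeR. DESeq2 called it (adjusted p = 0.0123), and so did limma voom with quality weights (0.00248). Fitting the obese groups alone gave an adjusted p of 0.155, and with the close young obese libraries averaged it was 0.575. Without aged obese 15, the highest library, the change was 1.119 on the log2 scale (adjusted p = 0.259). The fits without aged obese 10, 12 or 16 or young obese 1 or 2 called the gene (0.0213 to 0.0400). Aged obese 10 and 12 held Mki67 at 233 and 173 CPM, against 15.02 to 58.8 CPM in aged obese 14 to 17, and its part in the difference was not tested.

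Igf1 also varied widely among aged obese libraries. Aged obese 10 and 12 held 0.749 and 1.11 CPM, and levels were at 21.6 and 20.5 CPM in aged obese 14 and 15, and at 5.04 and 3.06 CPM in aged obese 16 and 17. The young obese libraries held 2.55 to 5.82 CPM. Aged obese libraries thus lay below, within and above the young obese range, and the change of 1.29 ± 0.53 on the log2 scale did not pass (adjusted p = 0.178 in edgeR). Without aged obese 14 it was 0.77 and without aged obese 15 it was 0.83. Irs2 ranged from 8.23 to 43 CPM with a median of 13.5 in aged obese libraries, against a median of 3.90 CPM in young obese libraries (log2 1.29 ± 0.69, adjusted p = 0.31), and the change was 0.80 without aged obese 14.

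Igfbp3, the main IGF carrier of the circulation, showed the widest spread of all. Aged obese 10 and 12 held only 0.449 and 0.606 CPM, and levels were at 15.9 and 14.8 CPM in 14 and 15, and at 81.1 and 58.5 CPM in 16 and 17. The 2 low libraries lay below every other library of the study, whose lowest value was 10.3 CPM. The group change with age in obese mice was -0.05 ± 0.70 on the log2 scale (adjusted p = 0.979). For Igfbp6 aged obese 10 and 12 held 134 and 184.5 CPM, also the lowest 2 of all libraries, against 350.2 to 399.5 CPM in the other 4. Igfbp7, which resembles the binding proteins but binds IGFs weakly, was at 604 and 722 CPM against 1068 to 1505 CPM. Igf1r went the other way, at 70.6 and 65.6 CPM in aged obese 10 and 12, the highest 2 of all libraries, against 35.3 to 47.7 CPM.

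These 2 libraries moved the count of calls with age in obese mice. In the fit of all libraries edgeR called 0 of the 10 genes (3 had an unadjusted p below 0.05, DESeq2 called 1 and voom 5), where 3.07% of all genes were called (1.87% higher, 1.2% lower). The 2 obese groups were free of overlap in 0 of the 10 genes and in 1.18% of all genes. Without aged obese 10 and 12 edgeR called 5 of 10. Igf1 rose by 1.83 on the log2 scale (adjusted p = 0.0113), Igfbp4 rose by 2.13 (0.00536), Igfbp6 rose by 0.54 (0.0269) and Igfbp7 rose by 0.55 (0.0181). Igf1r fell by 0.47 (0.0124). In that fit 2679 genes were called in all, against 443 with the 2 libraries. The 2 libraries are extremes of several of these genes, so leaving them out by itself moves the estimates and narrows the spread. These 5 calls are therefore no independent support for a change with age. With single libraries left out the count of the 10 genes called was 0 or 1. The call of voom included Igf1, Igf1r, Irs2, Igfbp4 and Igfbp7. Insr and Irs1 had negative changes that did not pass, -0.29 ± 0.13 and -0.36 ± 0.33 on the log2 scale, and Igfbp5 (0.36 ± 0.44), Igfbp6 (0.22 ± 0.20) and Igfbp7 (0.28 ± 0.18) had positive ones in the fit of all libraries. The median over the 10 genes was 0.25, against 0.01 over all genes tested.

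**Figure D4:**
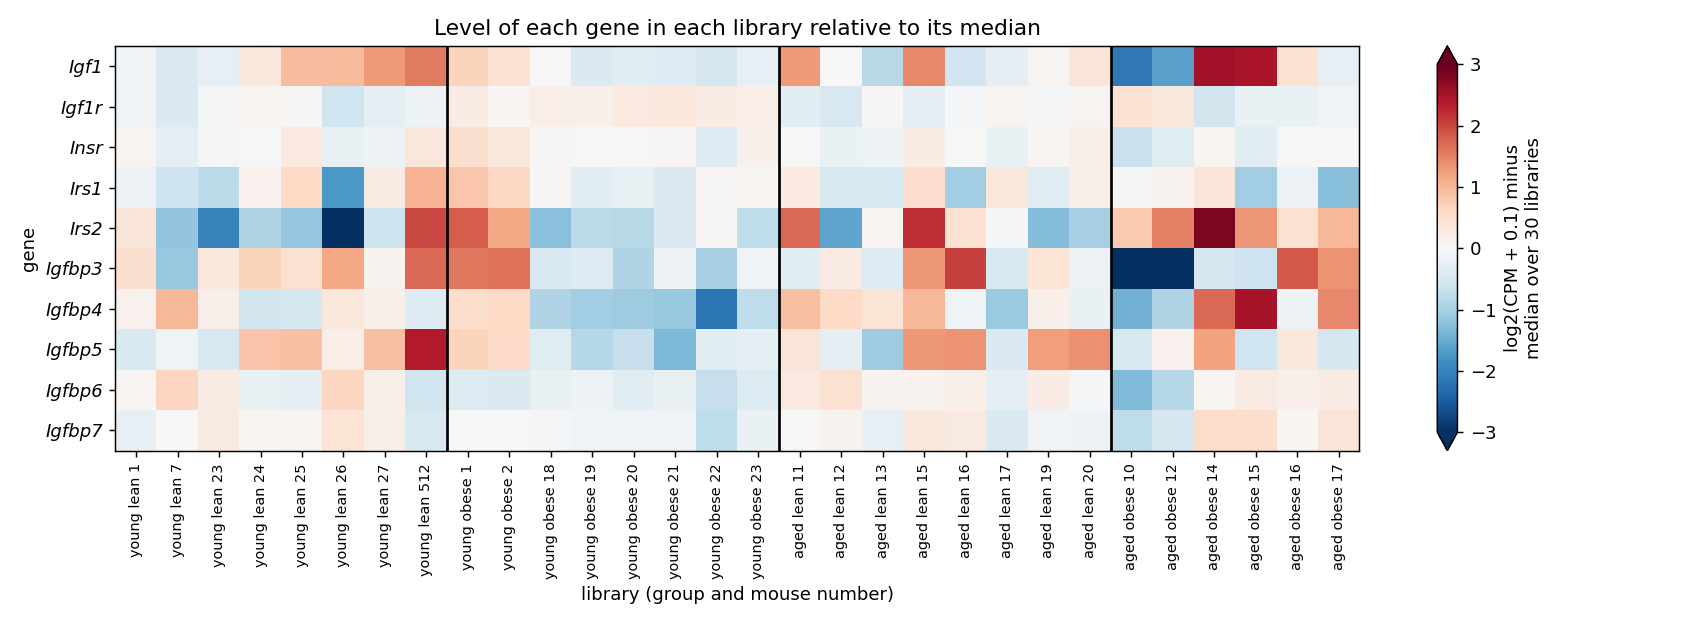
Level of each gene (rows) in each of 30 libraries (columns, by group and mouse number), as log2(CPM + 0.1) minus the gene's median over libraries. Aged obese 10 and 12 are low in Igf1, Igfbp3, Igfbp4, Igfbp6 and Igfbp7 and high in Igf1r, and young obese 18 to 23 are low in Igfbp4.

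In aged mice obesity moved none of the 10 genes past the threshold in edgeR, where 0.222% of all genes were called (0.166% higher, 0.0554% lower). None had an unadjusted p below 0.05, against 12.7% of all genes, and DESeq2 and voom called 0. Igfbp4 had medians of 809 CPM in aged lean and 1202 CPM in aged obese libraries, with ranges of 307 to 1329 and 244 to 3703 CPM (log2 0.82 ± 0.47, adjusted p = 0.484). Without aged obese 15 the Igfbp4 change was 0.30 (0.893). Igf1 had medians of 3.75 and 4.05 CPM (log2 0.84 ± 0.53), and its change was 0.32 without aged obese 14 and 0.38 without aged obese 15. Irs2 had medians of 6.04 and 13.5 CPM (log2 0.91 ± 0.68), and its change was 0.42 without aged obese 14. All 6 aged obese libraries lay above the aged lean median, and aged lean 11, 15 and 16 reached 19.4, 27.8 and 8.25 CPM. Igfbp5 had medians of 49.2 and 24.1 CPM (log2 -0.57 ± 0.44). Igf1r (0.10 ± 0.13), Insr (-0.20 ± 0.13) and Igfbp7 (0.13 ± 0.18) had estimates with small SE, and Irs1 (-0.18 ± 0.33), Igfbp3 (-0.29 ± 0.70) and Igfbp6 (-0.28 ± 0.20) did not pass either.

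With age in lean mice edgeR called 0 of the 10 genes and 0% of all genes. None of the 10 had an unadjusted p below 0.05, against 5.35% of all genes, and DESeq2 and voom called 0. The estimates of Igf1r (0.06 ± 0.12), Insr (-0.02 ± 0.12), Igfbp6 (0.00 ± 0.19) and Igfbp7 (-0.06 ± 0.16) were near 0 on the log2 scale. Irs2 had medians of 2.87 and 6.04 CPM (log2 0.72 ± 0.64, adjusted p = 0.879), and its ranges of 0.264 to 23.8 and 1.93 to 27.8 CPM overlapped widely. The Irs2 change was 1.62 without YL512 and 0.24 without aged lean 15. Igf1 (-0.30 ± 0.50), Igfbp3 (-0.03 ± 0.64), Igfbp4 (0.20 ± 0.43), Igfbp5 (-0.10 ± 0.40) and Irs1 (-0.09 ± 0.30) had larger SE, as had Irs2. For these genes changes the size of the SE, and also well above it, could go undetected.

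Aged obese against young lean cells had 0 of the 10 genes called in edgeR (2 with an unadjusted p below 0.05, 0 called by DESeq2 and 1 by voom), where 10.3% of all genes were called (5.62% higher, 4.65% lower). The 2 were Irs2 and Igfbp4. Aged obese 10, 12, 14, 15, 16 and 17 held 10.3, 17.2, 43.0, 14.9, 8.23 and 12.03 CPM of Irs2, and 7 of 8 young lean libraries held 0.264 to 7.66 CPM. The remaining one, YL512, held 23.8 CPM. The log2 change was 1.63 ± 0.69 (adjusted p = 0.119), and without YL512 it was 2.54 (0.0149). Without aged obese 14, the highest aged obese library, it was 1.14 (0.292). Igfbp4 changed by 1.02 ± 0.47 (adjusted p = 0.149), by 1.52 (0.0271) without aged obese 10 and 12, and by 0.50 (0.529) without aged obese 15. The comparison shares its samples with the age and obesity comparisons and does not add independent support to them.

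Whether the change with obesity differed between young and aged mice was tested as an interaction, which was called for 0 of 10 genes (2 with an unadjusted p below 0.05, 0 called by DESeq2 and by voom), where 0.00693% of all genes were called. Those 2 were Igf1 at 1.59 ± 0.73 (adjusted p = 0.614) and Igfbp4 at 1.44 ± 0.64 (adjusted p = 0.608). Both had negative estimates with obesity in young mice and positive ones in aged mice, and the difference was not shown.

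Other genes of the pathway were taken from a list of 81, of which 75 were tested. Not tested, for low counts, were Ins2, Insrr, Igfbp1, Igfals, Igfbpl1 and Irs4. With obesity in young mice 6 of 75 rose and 0 fell, where 8.83% of all genes were called (3.46% higher, 5.37% lower), with a median log2 change of 0.08 against -0.02 over all genes. Pdpk1, the kinase that activates AKT, rose from 34.2 ± 7.18 to 47.9 ± 14.5 CPM (log2 0.49 ± 0.13, adjusted p = 0.0288). Sos1, an exchange factor of RAS, rose by 0.45 and the kinase Mtor by 0.37 on the log2 scale. Adam12, a protease that can cleave IGF binding proteins, rose by 0.48 and Tbc1d1, a regulator of glucose transporter traffic, by 0.33. The calls of Mtor (adjusted p = 0.0628), Tbc1d1 (0.147) and Adam12 (0.0603) ended with the offset for length and GC content. Those of Pdpk1, Sos1, Mtor, Tbc1d1 and Adam12 ended without young obese 1 and 2 (0.0919 to 0.165), and each also ended in 4 to 12 of 16 fits with 1 library left out.

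With age in obese mice 1 of the 75 rose and 3 fell, where 3.07% of all genes were called (1.87% higher, 1.2% lower), and the median was 0.01 in the list and over all genes. Socs2, an inhibitor of growth hormone signalling, rose from 37.2 ± 9.13 to 67.0 ± 19.95 CPM (log2 0.85 ± 0.20, adjusted p = 0.0212). Stat5b, a transcription factor activated by the growth hormone receptor, fell from 32.7 ± 5.31 to 20.1 ± 5.22 CPM (log2 -0.70 ± 0.14, adjusted p = 0.0113). Stc2, an inhibitor of PAPP-A, fell from 45.5 ± 11.7 to 16.3 ± 7.82 CPM (log2 -1.48 ± 0.27, adjusted p = 0.00585). Trib3, a pseudokinase that binds AKT, fell by 2.04 (adjusted p = 0.00745). Without aged obese 15 the calls of Socs2 (0.0731) and Stat5b (0.0541) ended, and with the close young obese libraries averaged all 4 ended (0.555 to 0.575). Pappa itself had medians of 60.9 and 68.7 CPM (log2 0.05 ± 0.32, adjusted p = 0.952). Igfbp2, the only other binding protein tested, had medians of 57.8 and 79.2 CPM (log2 1.09 ± 0.48, adjusted p = 0.212), and Igf2, the other IGF ligand, had medians of 1.05 to 1.46 CPM over the 4 groups. In aged mice Trib3 was the only gene of the 75 called with obesity, where 0.222% of all genes were called. It was at 29 to 155 CPM in aged lean and 14.4 to 42 CPM in aged obese libraries and fell by 1.84 on the log2 scale (adjusted p = 0.0312). That call ended in 9 of 14 fits with 1 library left out and without aged obese 10 and 12 together (adjusted p = 0.13).

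Aged obese against young lean cells had 7 of the 75 higher and 6 lower, where 10.3% of all genes were called (5.62% higher, 4.65% lower), with a median of 0.10 against -0.01 over all genes. Ptpn1, a phosphatase of the insulin receptor, rose from 40.7 ± 9.08 to 78.0 ± 37.9 CPM (log2 0.94 ± 0.22, adjusted p = 0.0109). Hexokinase Hk2 rose by 1.44, the adaptor Sh2b2 by 0.93, Adam12 by 0.63, Socs2 by 0.62 and Tbc1d1 by 0.54 on the log2 scale. Klf15, a transcription factor of metabolic control, fell from 3.90 ± 1.04 to 1.19 ± 0.947 CPM (log2 -1.71 ± 0.45, adjusted p = 0.017). Trib3 fell by 2.36, Stc2 by 0.98, Stat5b by 0.58, Foxo3, a transcription factor that AKT inhibits, by 0.57 and Eif4ebp1, a repressor of translation that mTOR inhibits, by 0.52. Trib3, Klf15, Stat5b, Tbc1d1 and Adam12 stayed called with each single library left out. Fitting the compared groups alone ended the calls of Klf15 (0.0886), Stat5b (0.0643) and Adam12 (0.0567), and voom that of Tbc1d1 (0.0771). Without aged obese 15 the calls of Hk2 (0.0792), Stc2 (0.0605), Eif4ebp1 (0.0707) and Ptpn1 (0.0527) ended. Voom also ended that of Hk2 (0.0961). Leaving out aged obese 10 and 12 together ended those of Stc2 (0.0847) and Eif4ebp1 (0.0593). The calls of Sh2b2, Socs2 and Foxo3 ended most often, in 9, 10 and 8 of 14 fits with 1 library left out.

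**Figure D5:**
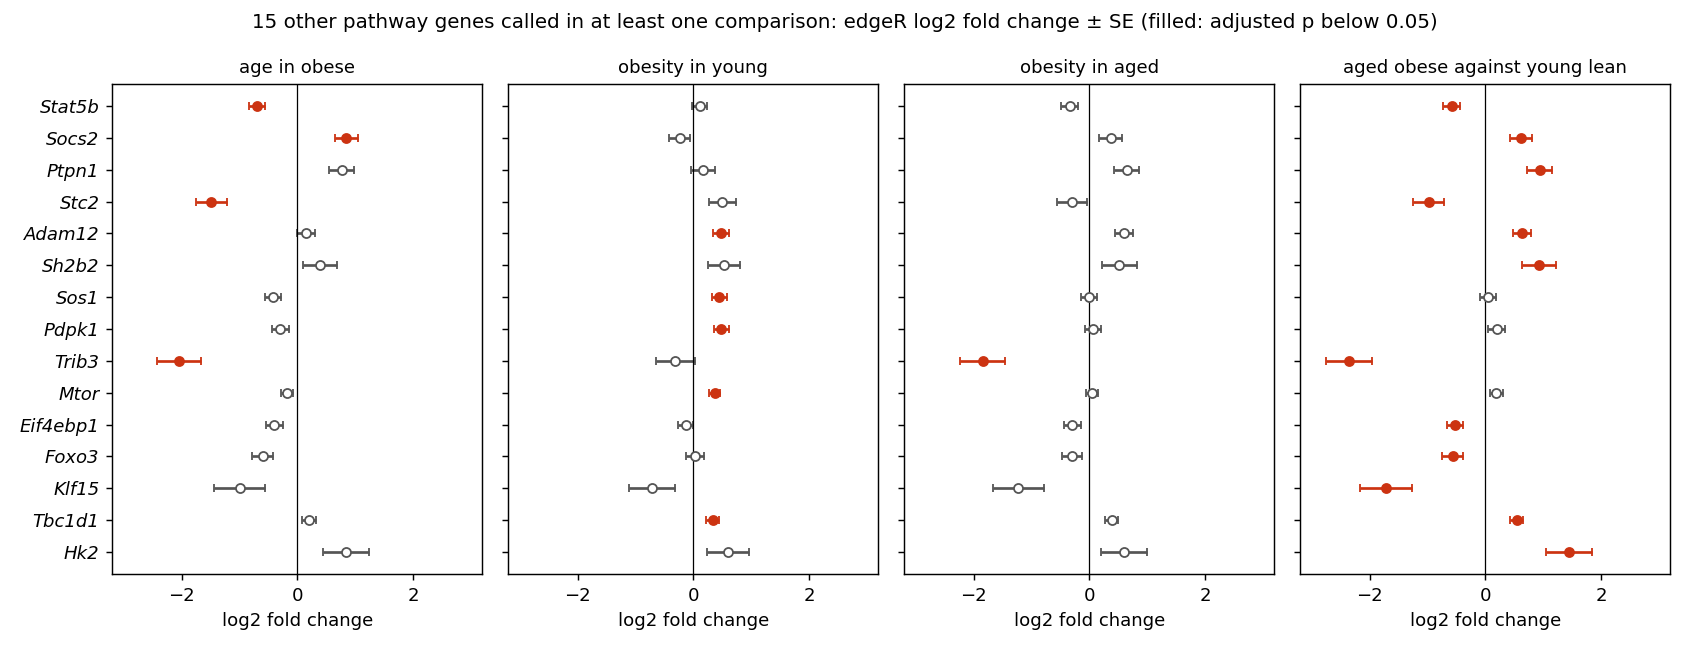
Log2 fold change with SE (horizontal axes) of 15 other pathway genes called in at least 1 comparison, in 4 comparisons; filled red points have an adjusted p below 0.05. The 5 filled points of obesity in young mice are all positive, and Trib3 is negative and filled in the other 3 panels.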

How the data were processed

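RNA of 30 libraries was analysed from the table of raw counts per Ensembl mouse gene that the authors deposited. The tools named in the submitters' processing notes are STAR, HTSeq (0.7.0) and DESeq2 (1.12.4). Build, annotation and strand setting are not given in the sources used here. Whether reads of overlapping or antisense genes were kept apart is therefore not known. The 5 lines that name no gene were left out of library sizes (3.94% to 8.75% of reads in no gene and 2.69% to 3.41% ambiguous). Symbols matched 36639 of 38561 gene IDs. Exon lengths (union of exons) came from GENCODE M21 on GRCm38, which may differ from the one the authors used. Genes kept by filterByExpr were scaled with TMM and tested with edgeR's quasi-likelihood F test (edgeR 4.0.16, R 4.3.3), with all 30 libraries in 1 fit of 4 group terms, and p-values were adjusted by Benjamini-Hochberg over 14438 genes, with calls below 0.05. The script was tested on simulated data. Alternatives used DESeq2 1.42.0, limma 3.58.1 voom, RLE scaling, no filter, only the groups compared, an offset for length and GC content (99.0% of tested genes), libraries left out and the mouse number as a block. Averaging the close young obese libraries was chosen after seeing the data. The labels name no batch. The 10 genes, the pathway list and the naming rule (all 10 genes, every called gene of the list up to 4 per role, and the 2 genes most like each of the 10) were chosen with earlier results of these data known. Some genes that the naming rule selects are counted but not reported here by name.

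The labels give mouse numbers, and 8 of them occur in 2 groups each. These number different mice, and the deviations of same-numbered libraries from their group means correlated between -0.517 and 0.39, so the numbers were not taken as pairs.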

Additional observations from a re-analysis of the deposited data

Results flagged for a closer look

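The CPM values of 10 genes in 4 groups were searched for a highest or lowest library set apart from its nearest neighbour. The gap had to be large for the range of the group (Dixon's 95% criterion). Of 40 sets 6 had such a library, where chance gives about 1 in 20 if values are normal and sets independent. CPM was not log-transformed here and the sets share the same 30 libraries. That rate is therefore only a rough guide, and no excess over chance is shown. Irs2 was at 23.8 CPM in the young lean library YL512, against 7.66 CPM in the next library. Igfbp5 was at 139 CPM in the same library, against 49.8 CPM in the next. Irs2 was at 43.0 CPM in aged obese 14, against 17.2 CPM in the next, and Igfbp5 was at 61.5 CPM there, against 33.7 CPM. Igfbp4 was at 1338 CPM in young lean 7, against 842 CPM. Igfbp7 was at 601 CPM in young obese 22, below the next library at 893 CPM.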

How the results depend on the processing

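Over 60 values (10 genes in 6 comparisons) the alternatives gave 1610 values, of which 1568 stayed on the same side of the threshold, 27 became called and 15 lost the call, all 15 for Igf1r with obesity in young mice; 120 had the opposite sign, 0 of them of a called value. The cause of each change was not tested.

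Counts with age in lean mice were 0 for all genes, 8 in DESeq2, 6 in voom and 0 to 1 with 1 library left out. With age in obese mice all genes gave 443 calls, 855 in DESeq2, 253 with no filter, 181 with only the compared groups, 2870 in voom, 2679 without aged obese 10 and 12, 0 with close libraries averaged and 43 to 1027 with 1 library left out. The 10 genes gave 0 calls, 1 in DESeq2, with RLE scaling, with the length and GC offset and without young obese 1 and 2, 5 in voom and without aged obese 10 and 12, and 0 to 1 with 1 library left out. The other pathway genes gave 4 calls, 9 in DESeq2, 15 in voom, 7 with the offset, 12 without aged obese 10 and 12, 0 with close libraries averaged and 2 to 10 with 1 library left out.

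With obesity in young mice all genes gave 1275 calls, 371 with no filter, 4265 in voom, 501 with the offset, 143 without young obese 1 and 2, 0 with close libraries averaged and 201 to 2197 with 1 library left out. The 10 genes gave 1 call, 0 with no filter, with the offset, without young obese 1 and 2 and with close libraries averaged, 2 with only the compared groups, 4 in voom and 0 to 2 with 1 library left out. The other pathway genes gave 6 calls, 3 with no filter and with the offset, 25 in voom, 1 without young obese 1 and 2, 0 with close libraries averaged and 1 to 8 with 1 library left out.

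With obesity in aged mice all genes gave 32 calls, 187 in DESeq2, 18 with no filter, 0 with only the compared groups, 114 in voom, 65 with the offset, 9 without aged obese 10 and 12 and 9 to 435 with 1 library left out. The other pathway genes gave 1 call, 2 in DESeq2, in voom and with the offset, 0 with only the compared groups and without aged obese 10 and 12, and 0 to 4 with 1 library left out. For aged obese against young lean all genes gave 1483 calls, 410 with only the compared groups, 695 in voom and 642 to 2405 with 1 library left out. The 10 genes gave 0 calls, 1 in voom and without aged obese 10 and 12, and 0 to 1 with 1 library left out. The other pathway genes gave 13 calls, 4 with only the compared groups and 5 to 16 with 1 library left out. The interaction gave 1 call over all genes, 7 in DESeq2, 91 in voom, 3 with the offset, 4 without young obese 1 and 2, 5 without aged obese 10 and 12, 0 with close libraries averaged and 1 to 6 with 1 library left out.

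The replicate block used the mouse number over the 16 libraries whose number occurs in 2 groups. With it all genes, the 10 genes and the other pathway genes gave 0 calls in the comparisons above, and Igf1r changed by 0.31 with obesity in young mice (adjusted p = 0.935). Without the block over the same 16 libraries the counts were also 0, except 1 of all genes with age in obese mice. Of the young groups the 16 hold only young lean 1 and 23 and young obese 1, 19, 20 and 23. Counts of 0 in so few libraries do not show that a change is absent. Same-numbered libraries correlated in their deviations between -0.517 and 0.39 over 8 pairs.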

Other observations

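For each of the 10 genes the genes with the most similar levels over the 30 libraries were found by Pearson's r of log2 CPM, among 10034 other genes whose mean reached 4 CPM. The values are a description across libraries that share groups and, in part, sets of close libraries. Igf1 was most like Pid1 (r = 0.934) and Rtn2 (0.886). Igf1r was most like Coro1c (0.933), and Insr most like Ncoa1 (0.875) and Pik3r4 (0.873). Irs1 was most like Dlc1 (0.866) and Rbfox2 (0.859), and Irs2 most like Fosb (0.896) and Mafk (0.893), both of which encode transcription factors. Igfbp3 was most like Amz2 (0.908) and Bnip3l (0.902), Igfbp4 was close to Cygb (0.907), and Igfbp5 most like Ogn (0.765) and Pla2r1 (0.75). Igfbp6 was most like Washc3 (0.913) and Lamtor4 (0.896), and Igfbp7 most like Sdf4 (0.945) and Mfap5 (0.932). No member of the 10 was among the 2 genes most like another.

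Mki67, a marker of cycling cells, is given here beside Igfbp4 at both ends of its range. The 3 libraries with the highest Igfbp4, aged obese 15, 14 and 17 at 3703, 2163 and 1802 CPM, had Mki67 at 20.1, 45.3 and 15.02 CPM. The 3 with the lowest Igfbp4, young obese 22, aged obese 10 and young obese 21 at 148, 244 and 301 CPM, had Mki67 at 209, 233 and 163 CPM. Libraries between these ends did not all keep this order. Aged lean 13 and 12 held Igfbp4 at 883 and 1009 CPM with Mki67 at 172 and 115 CPM. Aged lean 16 held less Igfbp4, 607 CPM, with Mki67 at only 20.97 CPM. All these libraries were picked after seeing the values, and no test was made of them.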
